A study of Mus musculus with 168 samples.

Results

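The Schlafen genes form a family of mouse immune genes, and 6 of its members were followed here: Slfn1, Slfn2, Slfn4, Slfn5, Slfn8 and Slfn9. They were found by gene symbol in the probe annotation of the array and were 6 of the 19752 genes that had a probe set of their own. Each member had 1 probe set: 10379633 for Slfn1, 10379630 for Slfn2, 10379636 for Slfn4, 10379615 for Slfn5, 10389143 for Slfn8 and 10389134 for Slfn9.

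The study examined how inhibitors of Janus kinases (JAKs) alter gene expression in sorted immune cells. Male C57BL/6 mice aged 6 weeks were gavaged with 1 of 5 inhibitors, SB00513404, SB00526221, SB00526222, SB00526226 or SB00526228, or with the vehicle, 0.5% MC, either plain or at pH 3. RNA of 6 cell populations was read on 168 Affymetrix Mouse Gene 1.0 ST arrays from 80 animals in 7 experiments, named J2, J3, J6, J8, J12, J23 and J25. The cells were macrophages of the peritoneal cavity (F4/80+, 33 arrays) and, from the spleen, macrophages (F4/80+, 33 arrays), dendritic cells (Flt3+, 20 arrays), NK cells (NK1.1+, 27 arrays), CD4+ T cells (39 arrays) and granulocytes (Ly6G+, 16 arrays). Compounds are known here by code only and the labels give no dose, so their values are set side by side and were not tested against each other.

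The mice followed several schedules. Peritoneal macrophages were taken 1.5 to 6 h after 1 treatment (12 inhibitor and 6 vehicle arrays), 18 to 28 h after 1 treatment (8 inhibitor arrays), or 18 h after the last of 14 treatments (4 inhibitor arrays). The later 2 of these were set against the same 3 vehicle arrays, 1 taken 19 h after 1 treatment and 2 taken 18 h after 14. Spleen cells were taken 14 to 18 h after the last of 14, 15 or 28 treatments, called prolonged here, or 4 h after the last of 3 treatments. The 4 h mice had no vehicle group of their own and the prolonged schedule's plain vehicle served as their control, so hours, number of treatments and inhibitor cannot be told apart in those comparisons. CD4+ T cells were also taken 18 h after 1 treatment, in 3 inhibitor arrays of J25, and were likewise set against the plain vehicle of the prolonged schedule. At 3 h after 1 treatment there was 1 inhibitor and 1 vehicle array of CD4+ T cells; they entered no comparison of treatments, and the vehicle array is among those of the vehicle levels. All inhibitors of a schedule were pooled, weighted by their number of arrays, and a value is the log2 of the deposited intensity unless stated otherwise.

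Schlafen proteins came to notice as genes that change with the growth and maturation of thymocytes. Slfn1 and Slfn2 encode short proteins, Slfn4 a protein of middle length, and Slfn5, Slfn8 and Slfn9 long proteins with a helicase-like region at the end of the chain. Slfn1 slows the growth of T cells when overexpressed, Slfn2 is needed for T cells and monocytes to stay quiescent, Slfn4 is a gene of myeloid cells, and the long forms are tied to RNA binding, T cell development and defence against viruses. Several of them are interferon-stimulated genes: type I interferon acts through the receptor chains Ifnar1 and Ifnar2, the kinases Jak1 and Tyk2, and transcription factors that bind the interferon-stimulated response element in promoters.

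The 6 members lie on chromosome 11. In RefSeq's annotation (GRCm38.p6) the Schlafen genes follow each other in the order Slfn5os, Slfn5, Slfn9, Slfn8, Slfn10-ps, Slfn2, Slfn1, Slfn4, Slfn3 and Slfn14, with 10 other genes between them. All 6 members had a promoter window of 250 bases before to 50 bases after the start of transcription in RefSeq. The core of the interferon-stimulated response element, GAAA followed by any 2 bases and GAAA, was searched on both strands and was found in the windows of Slfn5, Slfn8 and Slfn9, and not in those of Slfn1, Slfn2 and Slfn4. It occurred in 3.44% of 32851 such windows of all genes. The gamma-activated site, TTC and GAA with any 3 bases between them, searched likewise, was in none of the members' windows and in 8.3% of all windows. The windows with the core are printed below, and its part in any change under the inhibitors was not tested. They lie at chr11:82951852-82952151 on the plus strand for Slfn5, chr11:83020761-83021060 on the minus strand for Slfn8 and chr11:82991781-82992080 on the minus strand for Slfn9, and each is written 5′ to 3′ in the direction of its gene with the core in capitals.
Slfn5: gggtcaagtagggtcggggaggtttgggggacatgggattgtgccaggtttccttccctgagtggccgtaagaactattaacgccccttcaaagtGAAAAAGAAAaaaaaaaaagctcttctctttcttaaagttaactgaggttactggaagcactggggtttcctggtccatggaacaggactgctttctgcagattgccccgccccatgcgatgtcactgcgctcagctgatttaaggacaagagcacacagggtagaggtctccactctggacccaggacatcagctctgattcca
Slfn8: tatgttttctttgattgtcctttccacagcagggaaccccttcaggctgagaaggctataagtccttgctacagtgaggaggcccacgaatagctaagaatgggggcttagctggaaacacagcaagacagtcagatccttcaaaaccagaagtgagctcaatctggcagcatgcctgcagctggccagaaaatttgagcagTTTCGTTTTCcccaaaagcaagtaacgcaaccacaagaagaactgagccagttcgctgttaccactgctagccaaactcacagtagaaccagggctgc
Slfn9: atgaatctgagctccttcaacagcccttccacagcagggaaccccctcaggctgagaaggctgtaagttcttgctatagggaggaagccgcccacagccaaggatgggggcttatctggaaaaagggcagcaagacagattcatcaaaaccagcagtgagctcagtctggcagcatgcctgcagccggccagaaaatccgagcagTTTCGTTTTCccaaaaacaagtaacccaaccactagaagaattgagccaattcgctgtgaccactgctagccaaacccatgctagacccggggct

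The core read in the direction of the gene in Slfn5, where it began 155 bases before the start. It lay on the other strand in Slfn8 and Slfn9, where the same 10 letters, TTTCGTTTTC, began 48 and 45 bases before the start. RefSeq holds a second window for Slfn8, with another start, in which the core begins 136 bases before the start. The windows of Slfn8 and Slfn9 had 252 identical bases when aligned, 84% of the window, while the other 14 pairs of members had 55.7% to 62.3%. A match of letters is a description and no measure of binding.

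In mice given plain vehicle, each member had its own pattern over the 6 cell types. Slfn1, the growth-slowing short form, was highest in granulocytes at 12.73 ± 0.18 (mean ± SD, n = 5 arrays). It followed at 11.58 ± 0.31 in CD4+ T cells (n = 8), 10.05 ± 0.42 in peritoneal macrophages (n = 9) and 9.91 ± 0.45 in spleen macrophages (n = 8), and was lowest in NK cells at 7.40 ± 0.55 (n = 3) and dendritic cells at 7.22 ± 0.31 (n = 6). Granulocytes exceeded CD4+ T cells by 1.18 (limma adjusted p = 9.7e-07) and CD4+ T cells exceeded peritoneal macrophages by 1.54 (adjusted p = 1.37e-10). The macrophages did not differ from each other beyond their spread (0.13, adjusted p = 0.957), and neither did NK and dendritic cells (0.15, adjusted p = 0.682).

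Slfn4, the myeloid member, split the cell types into a high and a low set. Its level was 12.39 ± 0.22 in granulocytes, 10.91 ± 0.43 in peritoneal macrophages and 10.81 ± 0.16 in spleen macrophages, against 6.61 ± 0.16 in CD4+ T cells, 6.578 ± 0.26 in dendritic cells and 6.34 ± 0.17 in NK cells. The level of Slfn4 was above the median of its own array in 3 of 20 dendritic cell arrays, 0 of 27 NK cell arrays and 1 of 39 CD4+ T cell arrays, so those 3 populations gave no order among themselves and the size of the gap to the high set was not measured.

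Slfn2, the quiescence gene, was 11.44 ± 0.23 in granulocytes, 10.73 ± 0.19 in CD4+ T cells, 10.09 ± 0.33 in dendritic cells, 9.94 ± 0.54 in peritoneal macrophages, 9.82 ± 0.42 in spleen macrophages and 9.60 ± 0.15 in NK cells. Granulocytes exceeded CD4+ T cells (0.69, limma adjusted p = 0.00179) and these exceeded dendritic cells (0.63, adjusted p = 0.00407), while no neighbours in the order from dendritic cells down differed beyond their spread.

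The long forms had another order. Slfn5 lay between 8.735 and 9.271 in 5 populations with no neighbours in that order past the threshold, and lower, at 6.71 ± 0.56, in NK cells. Within the 5, granulocytes exceeded spleen macrophages by 0.52 (limma adjusted p = 0.029) and CD4+ T cells exceeded them by 0.45 (adjusted p = 0.0416). Only 1 of the 27 NK cell arrays had Slfn5 above the array's median, so the size of that gap was not measured. Slfn8 and Slfn9 were instead highest in NK cells, at 9.73 ± 0.44 and 8.682 ± 0.25. For Slfn8, granulocytes at 9.43 and CD4+ T cells at 9.37 followed without a difference beyond the spread, then dendritic cells at 8.91, spleen macrophages at 8.617 and peritoneal macrophages at 8.48. CD4+ T cells exceeded dendritic cells by 0.48 (adjusted p = 0.0337, and 0.055 without the animal as a block). For Slfn9, NK cells exceeded spleen macrophages at 8.11 by 0.59 (adjusted p = 0.048, and 0.0687 without the block), and the remaining populations lay between 8.03 and 7.45 with no step between neighbours past the threshold. Farther apart in that order, peritoneal macrophages exceeded dendritic cells by 0.63 (adjusted p = 0.00715) and granulocytes by 0.55 (adjusted p = 0.0163), and spleen macrophages exceeded them by 0.67 (adjusted p = 0.00371) and 0.59 (adjusted p = 0.00898).

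These steps are read against the share of all genes that differ between the same cell types. Granulocytes and CD4+ T cells differed in 75.2% of 12552 genes tested, CD4+ T cells and peritoneal macrophages in 58.7%, spleen macrophages and CD4+ T cells in 58.2%, CD4+ T cells and dendritic cells in 48.8%, granulocytes and peritoneal macrophages in 77.2%, granulocytes and spleen macrophages in 78.1%, dendritic cells and peritoneal macrophages in 51.1%, dendritic cells and spleen macrophages in 50.9%, spleen macrophages and NK cells in 45.4%. The macrophages of the peritoneum and spleen differed in 0.542%, and no member was among those genes.

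**Figure D1:**
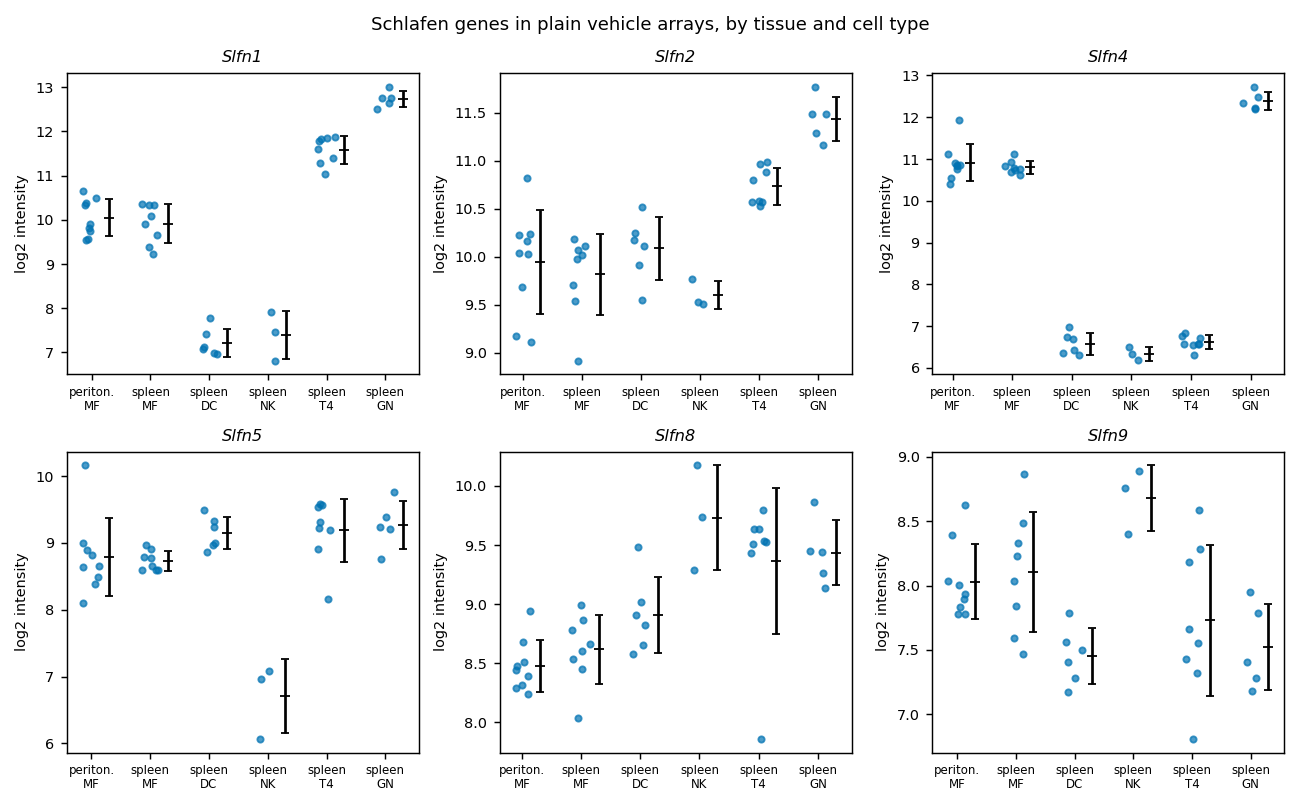
Log2 intensity (y axis) of each Schlafen gene in the plain vehicle arrays of the 6 cell populations (x axis), 1 point per array, with the mean and SD in black. Slfn4 lies above 10 in every granulocyte and macrophage array and below 7 in every CD4+ T, dendritic and NK cell array, while Slfn5 is lowest in NK cells and Slfn8 and Slfn9 are highest there.

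The sorted cells carried the markers of their labels: Adgre1 in both macrophage sets, Flt3 in dendritic cells, Ncr1 in NK cells, Cd4 in CD4+ T cells and Ly6g in granulocytes. The spleen macrophages went against their tissue label in both marker sums that bear on it. They also differed from the peritoneal macrophages in a far smaller share of genes than the other pairs given above. They are named by their label here, and whether that label is right was not tested. Their summed intensity of the large peritoneal macrophage genes Gata6, Icam2 and Timd4 was 5830 to 8170 in vehicle arrays, against 4830 to 7490 in the early peritoneal vehicle arrays, and their sum of the red pulp macrophage genes Spic, Vcam1 and Slc40a1 was 123 to 158, against 145 to 190. The NK cell arrays had a summed dendritic cell marker intensity of 2270 to 5270, mostly of Itgax, with Flt3 and Xcr1 low. In granulocyte vehicle arrays the red pulp macrophage sum was 3300 to 4460. There the macrophage sum was 2480 to 3680 and the dendritic cell sum 1630 to 2460. Dendritic cell vehicle arrays had a T cell marker sum of 2330 to 3870, given for Cd3e, Cd3d, Cd4 and Cd8a together. The part of these signals in the results was not tested. Of the 168 arrays, 18 stood apart from others of their population. The labels name different animals for the arrays of a population, so the spread includes the spread between animals, and in sorted pools fewer cells of a type and less RNA per cell cannot be told apart.

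Peritoneal macrophages were 1 of the populations in which members passed the threshold, within 6 h of 1 treatment. Slfn5, a long interferon-inducible form, fell by 1.16 on the log2 scale (2.233-fold), and Slfn8, another long form, fell by 0.53 (1.45-fold). All 6 members had a difference below 0, and the other 4 did not pass the threshold. The 2 members were among 10 of 10869 genes that passed, all of them lower, 0.092% of genes.

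Slfn5 read 10.16, 9.004 and 8.642 in the vehicle arrays of J12, 8.10 in that of J23, and 8.89 and 8.49 in those of J25. In the inhibitor arrays it ranged from 7.29 to 8.35, with a median of 7.75. The groups overlapped: 2 inhibitor arrays, at 8.35 (SB00526222 at 6 h in J23) and 8.19 (SB00513404 in J25), lay above the lowest vehicle array. Of the 12 inhibitor arrays, 11 lay below the vehicle mean of their own experiment. The fitted difference was -1.16 (SE 0.21, 95% confidence interval -1.59 to -0.73, limma adjusted p = 0.0179). For Slfn8 the vehicle arrays read 8.94, 8.39 and 8.47 in J12, 8.32 in J23, and 8.51 and 8.24 in J25. The inhibitor arrays ranged from 7.47 to 8.28, with 12 of 12 below the vehicle of their own experiment and the groups overlapping at a single array. The difference was -0.53 (SE 0.11, 95% confidence interval -0.76 to -0.31, adjusted p = 0.0445).

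Slfn1 read 9.55 to 10.65 in the vehicle arrays and 8.47 to 10.41 in the inhibitor arrays. It was below its own vehicle in 11 of 12 arrays and differed by -0.86 (limma adjusted p = 0.098). Slfn4 differed by -0.53 (adjusted p = 0.569), Slfn9 by -0.44 (adjusted p = 1) and Slfn2 by -0.42 (adjusted p = 1). The median over the 6 members was -0.53, beside 0.02 over all genes tested, of which 41% had a difference below 0.

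The experiments did not contribute alike. Slfn5 differed by -1.59 within J12 (6 inhibitor and 3 vehicle arrays), by -0.82 within J25 (2 and 2) and by -0.31 within J23 (4 arrays against 1 vehicle array that stood apart from the others). Slfn8 differed by -0.79, -0.35 and -0.23 in the same order, and Slfn1 by -1.10, -0.72 and -0.75. Slfn9 differed by -0.84 within J12, -0.11 within J25 and -0.04 within J23, and Slfn2 was above vehicle in J23 (0.39) and below it in J12 (-0.65) and J25 (-0.34). J12 was sorted on F4/80 alone and lists another separation method than J23 and J25, which were sorted on F4/80 and ICAM2, and that part in the difference was not tested. Without J12, Slfn5 differed by -0.69 and Slfn8 by -0.26, and neither passed (limma adjusted p = 0.999 for both). Without the 2 peritoneal arrays that stood apart, both passed (Slfn5 -1.34, adjusted p = 0.00193, and Slfn8 -0.57, adjusted p = 0.0274).

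Single arrays decided whether the threshold was passed. When each of the 18 arrays was left out in turn, Slfn5 passed in 15 fits, with differences from -1.36 to -0.89, and missed it without the vehicle arrays reading 10.16, 9.004 or 8.89 (limma adjusted p = 0.0882, 0.0722 and 0.0766). Slfn8 passed in 6 of 18 fits, with differences from -0.59 to -0.43 and adjusted p from 0.0179 to 0.309. Restricted to arrays at 3 h, Slfn5 differed by -1.36 (adjusted p = 0.00328), Slfn8 by -0.61 (adjusted p = 0.0271) and Slfn1 by -0.95 (adjusted p = 0.0382).

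**Figure D2:**
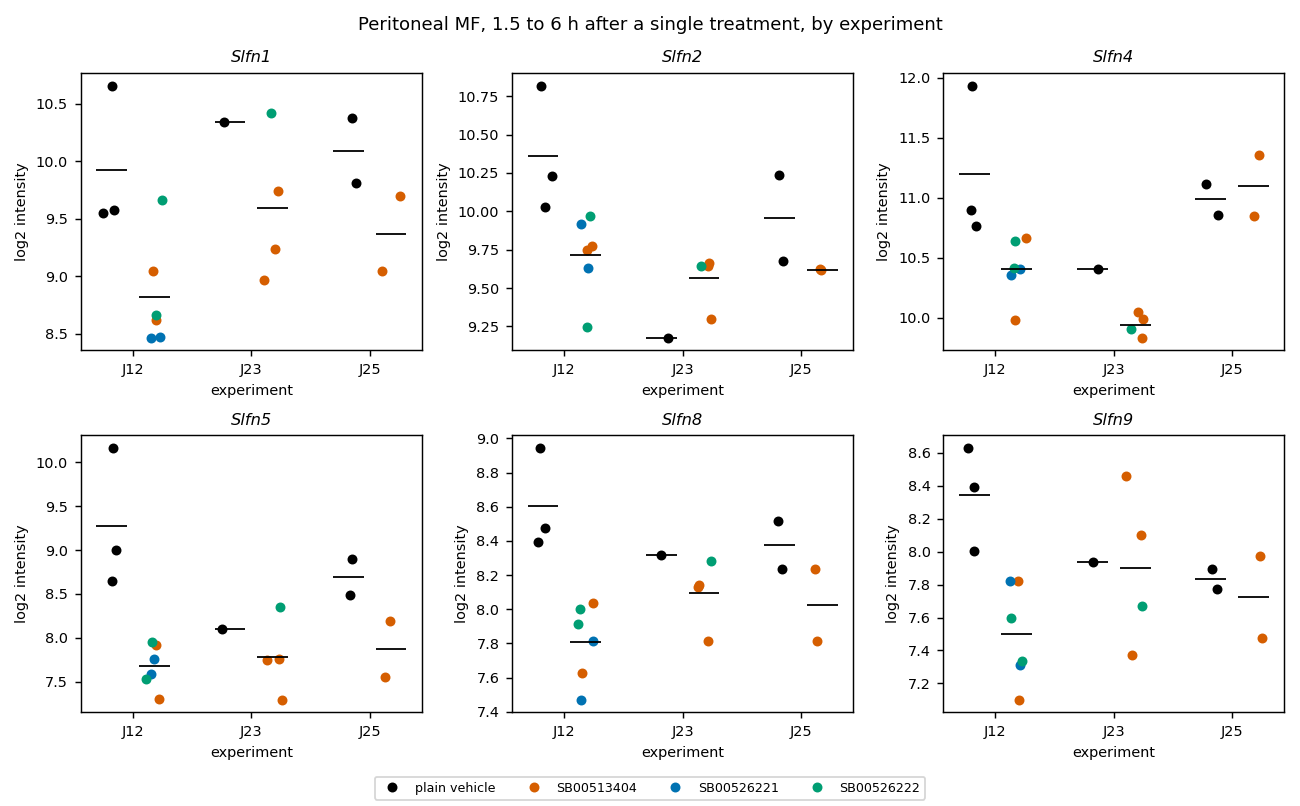
Log2 intensity (y axis) of the 6 Schlafen genes in peritoneal macrophages 1.5 to 6 h after 1 treatment, for plain vehicle and inhibitor arrays of each experiment (x axis), with a line at the mean of each group in each experiment. Slfn5 and Slfn8 have lower inhibitor than vehicle means in J12, J23 and J25, and the gap is widest in J12.

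By compound, Slfn5 differed by -1.19 under SB00513404 (7 arrays, limma adjusted p = 0.0589), by -1.31 under SB00526221 (2 arrays of J12, adjusted p = 0.823) and by -0.9998 under SB00526222 (3 arrays, adjusted p = 0.887). Slfn8 differed by -0.51, -0.82 and -0.40 in the same order. No member passed for a single compound in these cells, where 0.0184%, 0% and 0% of genes were called. Along the SB00513404 arrays of J23, Slfn5 read 7.76 at 1.5 h, 7.74 at 3 h, 7.29 at 6 h, 8.80 at 18 h and 8.23 at 28 h, with 1 array at each time, beside vehicle arrays of 8.10 at 6 h and 8.83 at 19 h. Both later arrays read higher than the 3 arrays at 1.5 to 6 h.

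At 18 to 28 h after 1 treatment no member passed. Slfn5 differed by -0.36 and Slfn8 by -0.03, with the 6 members between -0.39 and 0.22. The vehicle arrays of Slfn5 read 8.83, 8.658 and 8.38, and the 8 inhibitor arrays lay between 7.54 and 8.80, so the groups overlapped, as those of all 6 members did (groups did not overlap for 0.359% of genes in the lower and 0.202% in the higher direction). limma called 0 genes of 10869 there (0%), with 284 at an unadjusted p under 0.05. The difference between the early and the late effect was tested as an interaction, and 0 genes passed (273 at an unadjusted p under 0.05). For Slfn8 it was -0.51 (unadjusted p = 0.00879, adjusted p = 0.879) and for Slfn5 -0.80 (95% confidence interval -1.51 to -0.09).

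After 14 treatments no member passed. Slfn1 read 10.48, 9.91 and 9.74 in the vehicle arrays, 8.88 and 9.29 under SB00513404, and 9.59 and 9.63 under SB00526222. All 4 inhibitor arrays lay below all 3 vehicle arrays, as they did for 4.33% of genes (2.75% lay above), and the difference of -0.73 did not pass (unadjusted p = 0.0209, limma adjusted p = 0.977). The other members differed by -0.38 to 0.22, and 0 genes passed (0%, 521 at an unadjusted p under 0.05).

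**Figure D3:**
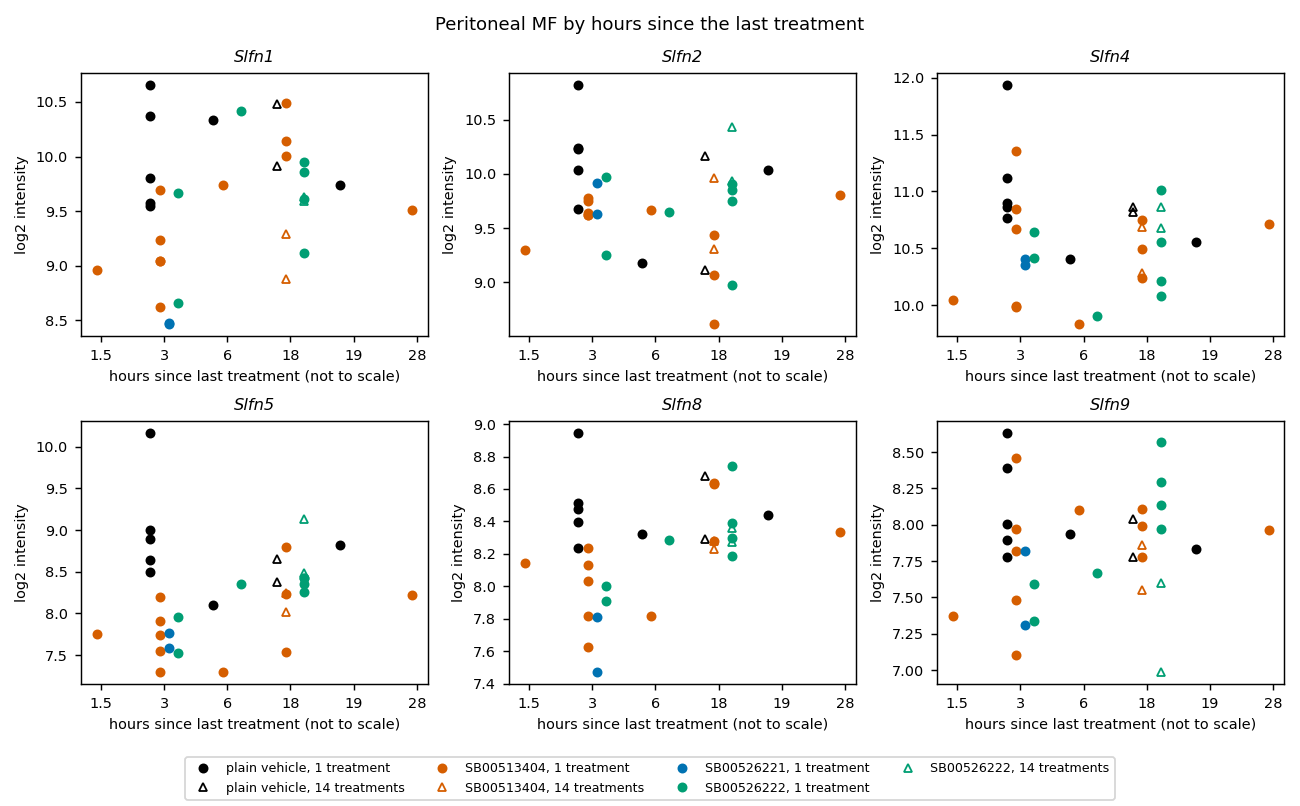
Log2 intensity (y axis) of the 6 Schlafen genes in peritoneal macrophages against hours since the last treatment (x axis, not to scale), 1 point per array, with triangles for mice given 14 treatments. Slfn5 lies between 7.29 and 8.35 in inhibitor arrays up to 6 h and reaches 8.80 at 18 h after 1 treatment, while vehicle arrays lie between 8.10 and 10.16.

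The genes around the family in this comparison were read from lists. Of 42 interferon-stimulated genes, 34 were tested, 7 passed and all 7 were lower, with a median difference of -0.51. The 3 with the largest statistic were Xaf1, a binding partner of an apoptosis inhibitor (-0.83, limma adjusted p = 0.0014), Rtp4, an interferon-induced receptor transporter (-1.69, adjusted p = 0.00513), and Oas2, an enzyme that makes oligoadenylates on sensing double-stranded RNA (-1.08, adjusted p = 0.0179). Of 6 tested genes of type I interferon signalling, which include members of the first list, Irf9 alone passed, at -0.55 (adjusted p = 0.0458), with Stat2 at -0.37 and Jak1 at 0.08. Of 12 tested genes of T cell quiescence 0 passed, with a median of 0.08. Both other Schlafen genes tested were below 0 without passing, the pseudogene Slfn10-ps at -0.45 (adjusted p = 0.123) and Slfn3 at -0.38 (adjusted p = 0.511). At 18 to 28 h and after 14 treatments 0 genes of these lists passed. Summed marker intensities of other cells overlapped between the groups. Neutrophil genes were at 293 to 392 (median 326) in inhibitor and 309 to 406 (median 348) in vehicle arrays, monocyte genes at 2380 to 4510 (median 3250) and 2140 to 3350 (median 2800), and B cell genes at medians of 352 and 266, with a highest array of 473 and 399. Their part in the result was not tested.

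In spleen granulocytes 4 h after the last of 3 treatments, Slfn5 and Slfn8 were again the members past the threshold. Slfn5 fell by 1.57 (2.965-fold) and Slfn8 by 1.38 (2.60-fold), 2 of the 5 genes of 10980 that passed, all of them lower (0.0455%). Slfn9 differed by -1.16 and did not pass.

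Slfn5 read 9.76 in the vehicle array of J2, 9.39 in that of J3 and 9.24, 8.76 and 9.21 in those of J6. The 4 h arrays, all of J2, read 7.55 under SB00526221, 7.84 and 7.81 under SB00526222 and 9.57 under SB00526226. The last lay among the vehicle arrays, and the pH 3 vehicle array read 9.46. The difference was -1.57 (SE 0.23, 95% confidence interval -2.06 to -1.08, limma adjusted p = 0.0391).

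Slfn8 followed the same order of arrays. It read 9.87 (J2), 9.45 (J3), 9.44, 9.27 and 9.14 (J6) under plain vehicle, 9.41 at pH 3, 7.84 under SB00526221, 8.51 and 8.18 under SB00526222 and 9.42 under SB00526226 at 4 h. The difference was -1.38 (SE 0.22, 95% confidence interval -1.84 to -0.92, limma adjusted p = 0.0391). Slfn9 read 7.78, 7.95, 7.18, 7.28 and 7.40 under plain vehicle and 6.05, 6.71, 6.41 and 7.34 at 4 h in the same order of compounds. Again the SB00526226 array lay inside the vehicle range, and the difference of -1.16 had an adjusted p of 0.347.

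Compound by compound at 4 h, each set against the single J2 vehicle array, SB00526221 (1 array) gave -2.21 for Slfn5 and -2.03 for Slfn8. SB00526222 (2 arrays) gave -1.93 and -1.52. SB00526226 (1 array) gave -0.19 and -0.45. With 1 or 2 arrays against 1, these are given as values without a test. Slfn1 differed by -0.35, Slfn4 by -0.27 and Slfn2 by 0.19 in the pooled comparison, none past the threshold, and the value of Slfn2 was -0.09 when the experiment was left out of the model.

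The granulocyte result rests on few arrays. With the experiment in the model it equals the difference from the single J2 vehicle array, the highest of the 5 for both genes, and it could not be estimated without that array. Left out of the model, the experiment gave -1.08 for Slfn5 and -0.95 for Slfn8 (limma adjusted p = 0.00981 for both) and brought Slfn9 past the threshold at -0.89 (adjusted p = 0.0316). Slfn5 passed in 4 of 8 fits without 1 array and Slfn8 in 3 of 8. Slfn5 missed the threshold without the SB00526221 array, without either SB00526222 array and without the J6 vehicle array reading 9.24, where adjusted p ran from 0.0681 to 0.216, and Slfn8 also without the J6 vehicle array that stood apart (adjusted p = 0.0656). Summed neutrophil marker intensity was 48100 to 59700 in the 4 h arrays and 37900 to 53100 in vehicle arrays, and that of macrophage genes 1760 to 4190 and 2480 to 3680. The part of these in the result was not tested.

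**Figure D4:**
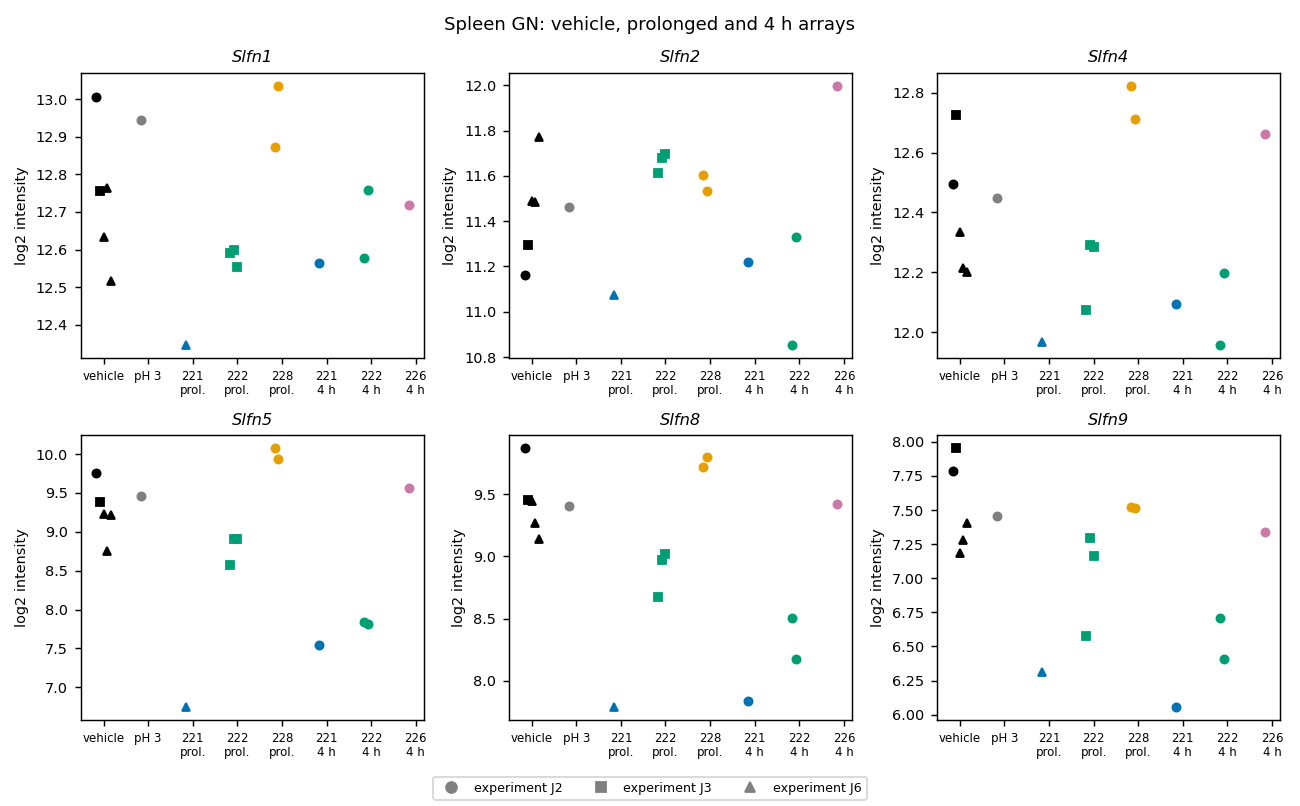
Log2 intensity (y axis) of the 6 Schlafen genes in spleen granulocytes by vehicle, compound and schedule (x axis, compounds by the last 3 digits of their code), 1 point per array, with the marker shape giving the experiment. For Slfn5, the SB00526221 and SB00526222 arrays at 4 h lie between 7.55 and 7.84. The single prolonged SB00526221 array lies at 6.74 and the lowest vehicle array at 8.76.

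After prolonged treatment no member of the family passed in granulocytes over all inhibitors. Slfn9 differed by -0.72 (limma adjusted p = 0.257), Slfn5 by -0.60 (adjusted p = 0.268) and Slfn8 by -0.57 (adjusted p = 0.268), while 3 genes passed, all higher (0.0273%, with 918 at an unadjusted p under 0.05). The single SB00526221 array, from J6, read 6.74 for Slfn5, 7.79 for Slfn8 and 6.31 for Slfn9. This 1 array differed from the vehicle of J6 by -2.33 for Slfn5 and -1.50 for Slfn8, and has no replicate. The 3 SB00526222 arrays of J3 read 8.58, 8.91 and 8.90 for Slfn5 (-0.59), and the 2 SB00526228 arrays of J2 read 10.07 and 9.94 (0.25). Each of these differences is from the 1 vehicle array of that experiment and is given without a test. Every compound of this schedule came from an experiment of its own, so compound and experiment cannot be told apart here. The 4 h and prolonged comparisons share their vehicle arrays. Set against each other directly, the inhibitors present in both gave 0 genes past the threshold (667 at an unadjusted p under 0.05), with Slfn5 at -0.86 (adjusted p = 0.81).

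Of the interferon-stimulated list, 35 genes were tested in granulocytes at 4 h. Rsad2, which encodes the antiviral protein viperin, differed by -1.73 and Ifit3, an interferon-induced protein with tetratricopeptide repeats, by -2.02 (limma adjusted p = 0.0391 for both), and 0 others passed, with Ifit1 at -1.64 (adjusted p = 0.111). The median of the list was -0.49, beside 0.03 over all genes. Of the 6 signalling genes tested, the 12 quiescence genes and the 3 other Schlafen genes, 0 passed, with Slfn10-ps at -0.86 (adjusted p = 0.636) and Slfn3 at 0.05.

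In NK cells the member that moved was the quiescence gene Slfn2, in the comparison of 4 h with prolonged inhibitors. Its 4 h arrays, all of J2, read 10.12 and 10.19 under SB00526221, 9.72 under SB00526222 and 10.19 and 10.43 under SB00526226. The prolonged arrays of the same compounds in J2 read 9.24 and 9.86, 9.30 and 9.37. Over all experiments the prolonged arrays lay between 9.24 and 10.46, so the groups overlapped, and the 4 highest of them were from J8. With the experiment in the model, Slfn2 was 0.68 higher at 4 h (SE 0.15, 95% confidence interval 0.37 to 0.99, limma adjusted p = 0.0191), 1 of 47 genes higher (0.429% of 10957) and 161 called in all (1.47%). It did not pass without the experiment in the model (0.26, adjusted p = 0.292), with the experiment as a random block (0.48, adjusted p = 0.11) or with the arrays of J2 alone (0.70, adjusted p = 0.0764), and it passed in 17 of 21 fits without 1 array. Of 13 tested genes of T cell quiescence, Btg2, an antiproliferative gene, was the 1 that passed in this comparison, higher by 0.85 (adjusted p = 0.00429).

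Against plain vehicle, at 9.50, 9.53 and 9.77, Slfn2 in NK cells differed by 0.59 at 4 h (unadjusted p = 0.00261, limma adjusted p = 0.198), with all 5 arrays above their own vehicle, and 13 genes passed (0.119%). Of the other 3 members tested in NK cells, Slfn8 differed by -0.41 (adjusted p = 0.499), Slfn1 by -0.28 and Slfn9 by -0.26. Slfn8 read 10.17, 9.73 and 9.29 under vehicle and 9.24 to 9.48 at 4 h, and all 5 of these arrays lay below the J2 vehicle arrays. Ifit1 was the 1 gene of 34 interferon-stimulated genes tested that passed there, at -1.63 (adjusted p = 0.0481), and Slfn10-ps differed by -0.32. After prolonged treatment 0 genes passed in NK cells (0%, 418 at an unadjusted p under 0.05), and the 4 members differed by -0.33 to -0.03. Of the 19 inhibitor arrays there, only 9 had a vehicle array in their own experiment. Within J2 (7 inhibitor and 2 vehicle arrays) Slfn8 differed by -0.60 and Slfn9 by -0.49. Within J6 (2 and 1) they differed by 0.04 and 0.09.

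In spleen macrophages no member passed. After prolonged treatment all 6 differences were below 0, from -0.47 for Slfn9 to -0.02 for Slfn2, with a median of -0.19 beside 0.01 over all genes. Slfn9 ranged from 7.47 to 8.87 with a median of 8.13 in the 8 vehicle arrays and from 7.11 to 8.37 in the 18 inhibitor arrays, of which 17 lay below the vehicle of their own experiment (unadjusted p = 0.00209, limma adjusted p = 0.32). A single gene passed, the interferon-induced Ifi27l2a at -0.95 (adjusted p = 0.00885), 0.00908% of 11008. At 4 h Slfn5 read 7.88 under SB00526221, 8.44 and 7.84 under SB00526222 and 8.727 under SB00526226, against 8.59 to 8.97 under vehicle, and the pooled difference was -0.64 (adjusted p = 0.626, 2 genes called, 0.0182%). By compound it was -0.98, -0.72 and -0.13. The 4 macrophage arrays at 4 h came from the same 4 mice as the 4 granulocyte arrays, so these cell types are not separate tests.

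Dendritic cells and CD4+ T cells had no member past the threshold either. In dendritic cells 0 genes passed after prolonged treatment (0%, 186 at an unadjusted p under 0.05) and 0 at 4 h (0%, 570). Slfn8 was below its own vehicle in 11 of 12 prolonged arrays with a difference of -0.20 (limma adjusted p = 0.978), and Slfn1 differed by -0.78 at 4 h (2 arrays, unadjusted p = 0.0198, adjusted p = 0.808). In CD4+ T cells the 5 members tested differed by -0.07 to 0.08 after prolonged treatment, with a 95% confidence interval of -0.27 to 0.42 for Slfn5 and -0.19 to 0.21 for Slfn2, and 0 genes passed (0%, 402). At 4 h Slfn5 read 9.05 to 9.45 in 5 arrays, all below the J2 vehicle array at 9.59, with a difference of -0.39 (adjusted p = 1, 1 gene called, 0.00892%), which was 0.0883 when the experiment was left out of the model. At 18 h after 1 treatment the members differed by -0.11 to 0.28 and 0 genes passed (0%, 212). The pH 3 vehicle did not differ from the plain vehicle past the threshold for any gene in macrophages, CD4+ T cells or granulocytes (0%, with 194, 412 and 499 genes at an unadjusted p under 0.05).

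**Figure D5:**
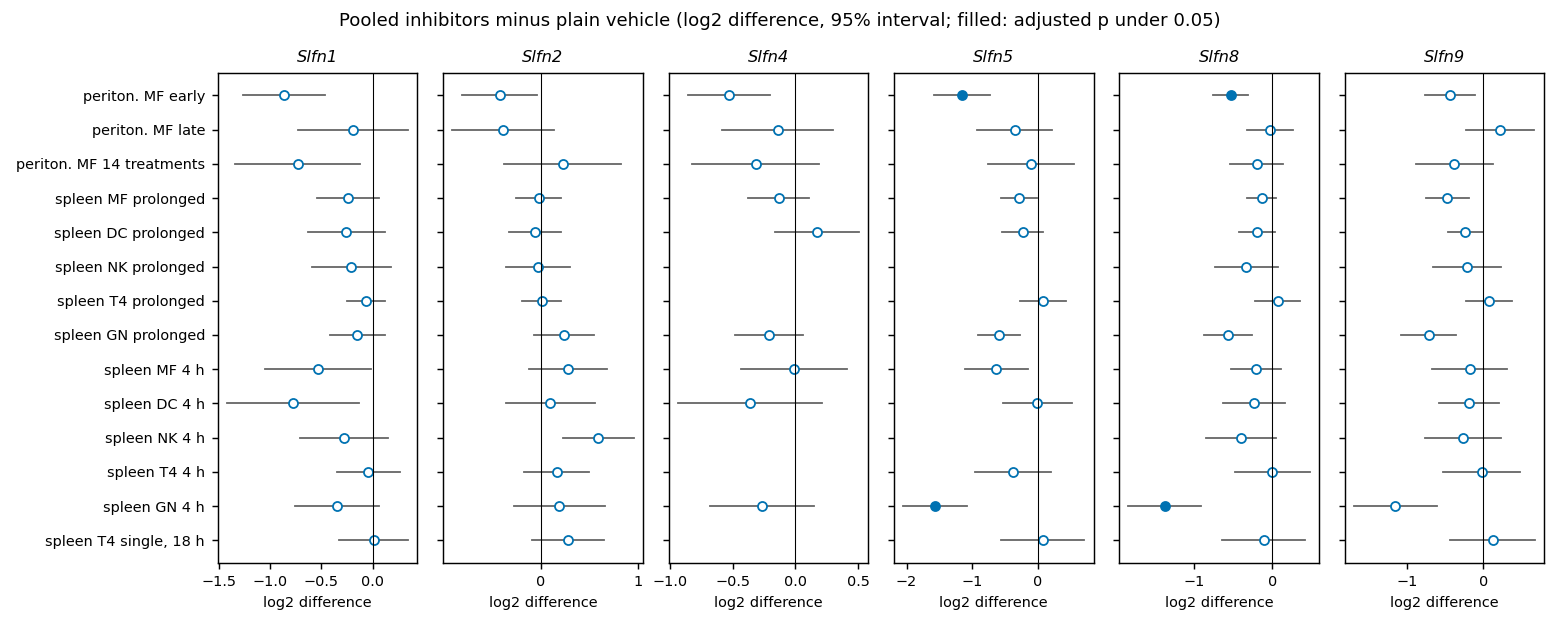
Log2 difference between inhibitor and plain vehicle (x axis) of each Schlafen gene in each cell population and schedule (y axis), with the 95% confidence interval, filled where the limma adjusted p is under 0.05. The filled points are Slfn5 and Slfn8 in early peritoneal macrophages, at -1.16 and -0.53, and in granulocytes at 4 h, at -1.57 and -1.38.

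Whether the prolonged effect differed between the 5 spleen cell types was tested gene by gene. None of the 6 members passed, among 33 of 13130 genes that did (0.251%), and Slfn9 had the smallest p of them (unadjusted p = 0.0187, limma adjusted p = 0.888). In NK cells the signal of Slfn4 and Slfn5 was too low to test, as was that of Slfn4 in CD4+ T cells. This comparison could not judge their effects there. A response of Slfn5 and Slfn8 in granulocytes and not in another cell type was therefore not shown for the prolonged schedule, and it was not tested at 4 h.

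Across all 168 arrays, after centring each gene within tissue, cell type and experiment, the members went with different genes, as a description over 13153 genes in which arrays share animals and experiments. Slfn5 was most like Ddx58, the RNA sensor RIG-I (r = 0.82), Parp14 (0.794), Usp18, a brake on interferon receptor signalling (0.784), Slfn8 (0.782) and Ddx60 (0.779). Slfn8 was most like Herc6, a ligase of the interferon response (0.884), the RNA sensor Ifih1 (0.805), Slfn5, Ddx58 (0.766) and Ddx60 (0.762). Slfn9 was most like Slfn10-ps (0.714), Slfn8 (0.703), Herc6 (0.638), Ifi209 (0.637) and Atad2 (0.636). Slfn1 was most like Rtp4 (0.611), followed by Sp100, Xaf1, Oasl2 and Zbp1 (0.546). Slfn4 was most like the granulocyte receptor gene Csf3r (0.686), followed by Gda, Cd33, Cxcr2 and Il1f9 (0.628). The arrays included the CD4+ T cell array with Slfn4 at 9.64 and a summed neutrophil marker intensity of 10300. The part of that array in the values of Slfn4 was not tested. Slfn2 had no gene in common with these lists: its own was Snrpb (0.776), Rnf114, Atp5a1, Maf1 and Mxd4 (0.759). Its r with the other members was 0.349 for Slfn5, 0.203 for Slfn4, -0.019 for Slfn8, -0.026 for Slfn9 and -0.028 for Slfn1. With centring by tissue and cell type alone, 2 to 4 of the 5 genes of each list were found again.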

How the data were processed

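RNA of sorted mouse cells was read on Affymetrix Mouse Gene 1.0 ST arrays. The deposited values are linear intensity per probe set, made with Affymetrix Power Tools and RMA per the submitters' processing notes; the sources used here give no version, setting or build. RMA summarises the probes of a set over arrays together and compresses differences at low signal. Of 24922 probe sets, 21425 had 1 gene symbol, 1399 several and 2098 none; 19752 genes resulted, each read by the probe set of highest mean log2 value.

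The log2 of the deposited intensity was tested with limma 3.58.1 (R 4.3.3), 1 fit per tissue and cell type with group and experiment as fixed effects. Genes above the median of all probe sets of the array in at least 3 arrays of the cell type were tested, p-values were adjusted by Benjamini-Hochberg over all of these, and the threshold was 0.05, two-sided. Of the 6 members, 6 were tested in macrophages, dendritic cells and granulocytes, 5 in CD4+ T cells (not Slfn4) and 4 in NK cells (not Slfn4 and Slfn5). Vehicle levels were compared in 39 plain vehicle arrays of 19 animals with the animal as a random block, and prolonged effects between cell types by a moderated F test with the same block. The p-values measure the spread between these arrays, whose number limits the precision.

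The 6 members are always named, and of each list at most the 3 genes with the largest statistic, besides genes that passed, other Schlafen genes and markers. Likeness names the 5 genes with the highest Pearson r. The members and lists were chosen with earlier results of these data known. Windows were aligned with biopython 1.88. The models were tested on simulated data. The alternatives were the experiment left out or as a random block, quantile normalization, log2(value + 16), no filter on low values, the mean of probe sets, array weights, both vehicles together, subsets of arrays, and each array left out in turn. Replicate numbers were given in accession order and pair no samples.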

Additional observations from a re-analysis of the deposited data

Results flagged for a closer look

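Dixon's criterion was applied to 104 combinations of a member and a group of at least 4 arrays. In 5 of them an array lay far from the others of its group, about what chance gives (1 in 20). The combinations share arrays and are not independent. In peritoneal macrophages under SB00513404 within 6 h, Slfn2 read 9.301 in the array at 1.5 h of J23, below the next array at 9.618. In CD4+ T cells after prolonged SB00526221, Slfn2 read 10.05 in an array of J2, below the next at 10.57. In CD4+ T cells after prolonged SB00526222, Slfn2 read 10.22 in an array of J25, below the next at 10.83. In NK cells after prolonged SB00526226, Slfn8 read 9.515 in the array of J2, above the next at 8.966, which like the rest was of J8. In CD4+ T cells given plain vehicle for the prolonged schedule, Slfn8 read 7.86 in an array of J8, below the next at 9.43, and this array also stood apart from other CD4+ T cell arrays over all genes.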

How the results depend on the processing

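In early peritoneal macrophages 2 members passed, against 3 with array weights, 3 with arrays at 3 h alone, 1 with no filter on low values and 0 without J12, and 0 to 3 when each array was left out in turn. In granulocytes at 4 h 2 members passed, against 0 under quantile normalization, 0 with no filter on low values, 0 with arrays of J2 alone, 1 without the arrays standing apart, 3 without the experiment term, and 0 to 2 when each array was left out; 0 passed without the SB00526221 arrays or without the SB00526222 arrays, alternatives chosen after seeing the data. With array weights 1 member passed in late peritoneal macrophages (Slfn2 at -0.64, limma adjusted p = 0.0292) and 1 in NK cells at 4 h (Slfn2 at 0.59, adjusted p = 0.0245), against 0 of each in the fits reported. Of 78 member differences fitted, 27 changed sign under at least 1 alternative; 0 of these had passed, and 0 passed with the changed sign. Among those with a value of their own in the text, Slfn2 in granulocytes at 4 h (Slfn2: Spl_GN 4h) was -0.0889 without the experiment term, -0.0303 with it as a random block and -0.0256 without the SB00526226 array (-0.0256 to 0.3556 when each array was left out). Slfn5 in CD4+ T cells at 4 h (Slfn5: Spl_T4 4h) was 0.0883 without the experiment term. Slfn8 in late peritoneal macrophages (Slfn8: PerC_MF late) was 0.0612 under quantile normalization, 0.083 with array weights and -0.1247 to 0.0697 when each array was left out. Slfn2 in prolonged CD4+ T cells (Slfn2: Spl_T4 prolonged) was -0.0131 without the experiment term, -0.0029 with it as a random block, -0.0069 under quantile normalization, -0.0609 without the arrays standing apart, -0.0548 with both vehicles, -0.0217 without the 28-treatment arrays and -0.0499 to 0.0419 when each array was left out. Leaving out each array gave -0.082 to 0.2368 for Slfn5 there (Slfn5: Spl_T4 prolonged) and -0.1149 to 0.029 for Slfn2 in prolonged spleen macrophages (Slfn2: Spl_MF prolonged). The vehicle level of Slfn9 in CD4+ T cells minus granulocytes was -0.0729 under quantile normalization over all arrays. The causes were not tested. The granulocyte fits could not be estimated without the J2 vehicle array, nor the prolonged one without that of J3. No paired analysis was possible because the replicate numbers were given in accession order. In NK cells and CD4+ T cells the signal of Slfn4, and in NK cells that of Slfn5, was too low to test.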

Other observations

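In CD4+ T cells, 1 of 39 arrays had Slfn4 above the median of its array, at 9.64, an SB00526228 array of J2 that stood apart. Its summed neutrophil marker intensity was 10300, against 276 to 470 in the other CD4+ T cell arrays, and its part in that level was not tested.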
